A study of Homo sapiens with 4 samples.

Results

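S100 genes encode small calcium-binding proteins, and 9 of the 20 S100 genes named in the files are described here: S100A2, S100A4, S100A6, S100A10, S100A11, S100A13, S100A14, S100A16 and S100P. They were chosen by symbol with their measured FPKM in these libraries already known, that of S100A13 in both arms above all. FPKM is a read level corrected for the length of the transcript and for the reads mapped in the library. The 9 genes hold 14 of the 53209 RefSeq transcript entries and 9 of the 26610 gene names or unnamed transcripts. Differences of these genes between the arms are therefore given as a description. A test over all genes, given below, includes 7 of them, and nothing about them is read from it or from its other settings.

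The RNA came from DU-145, a human prostate cancer cell line, in a search for the mRNAs that associate with miR-28-5p. The miR-28CT arm received an untagged miR-28-5p duplex at 60 nM with a cationic lipid reagent. The miR-28BIO arm received, at the same dose, mixed duplexes of the same miRNA that carried biotin at the 3′ end and a thiouridine at nucleotide 8 or 18. In both arms the cells were exposed 24 h later to ultraviolet light of 365 nm (2 J/cm2), and RNA retained on streptavidin beads was sequenced as single reads of 50 bases. Each arm has 2 libraries, described as biological replicates. Both arms thus carry the miRNA, and miR-28CT gives the background RNA that the beads held without a tag. The listed coverage and FPKM correspond to about 17890198 and 12992679 reads in miR-28CT replicates 1 and 2, and 17307225 and 14669519 reads in miR-28BIO. In such bulk RNA, fewer cells of a kind, less RNA per cell and less retention on the beads cannot be told apart.

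S100 proteins carry a pair of EF-hand motifs, mostly form dimers, and change shape on binding calcium so that they can hold target proteins such as annexins, myosin heavy chains and p53. Most of the genes lie in a cluster on chromosome 1, and several are expressed at high levels in epithelial cells. S100A13 is known for its part in the release of fibroblast growth factor 1 by a route without a signal peptide.

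S100A13 was listed in both miR-28CT libraries and at 0 in both miR-28BIO libraries. S100A11 and S100A6 were the most abundant of the 9 genes in each library. S100A6, S100A16, S100A4 and S100A2 differed more between the miR-28CT replicates than between the arms. The arms overlapped for these 4 genes and for S100A10 and S100A11. S100P was listed at 0 in all 4 libraries and S100A14 stayed below 0.4 FPKM.

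**Figure D1:**
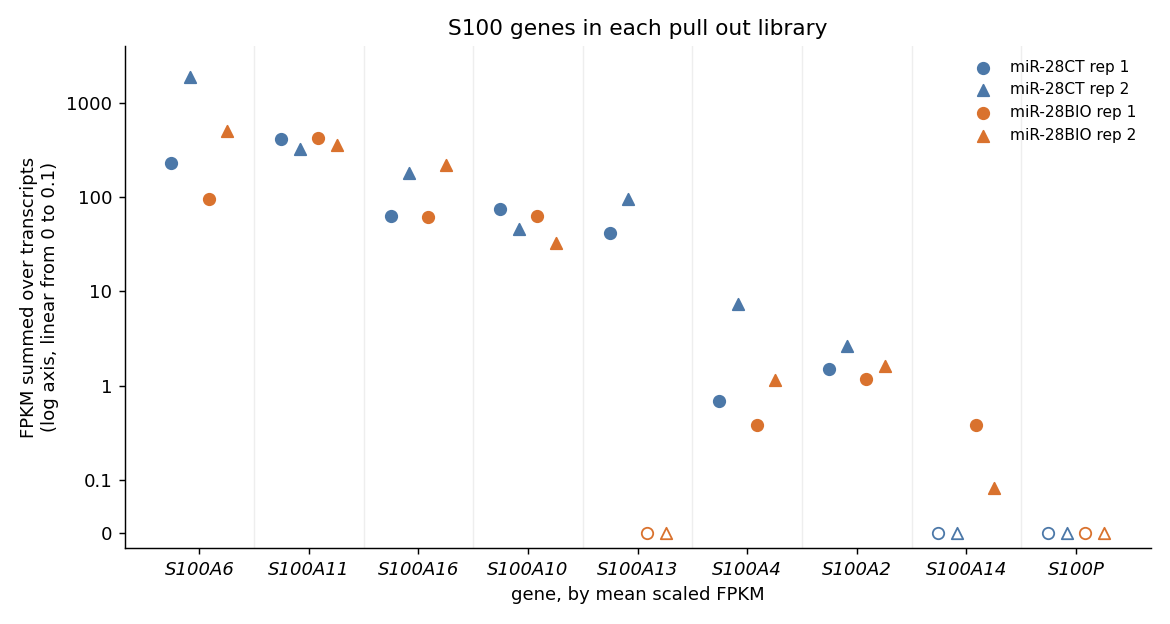
FPKM as deposited, summed over the transcripts of each of the 9 S100 genes, in each library (log axis, linear from 0 to 0.1). Open symbols are values listed at 0: S100A13 has 2 filled symbols, both from miR-28CT, at 41.7 and 95.7.

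S100A13 had 5 transcripts in the files, all on the minus strand of chromosome 1 and ending at the same base, 153618800 (hg38). Its summed FPKM was 41.7 and 95.7 in miR-28CT replicates 1 and 2, and 0 and 0 in miR-28BIO. The 2 arms did not overlap, and the miR-28CT libraries differed from each other by 2.87 times after scaling. Transcript NM_001024213, of 551 bases, had 28.1 and 95.7 FPKM in miR-28CT. Transcript NM_001024211, of 612 bases, had 13.6 FPKM in miR-28CT replicate 1 and was listed at 0 elsewhere. The other 3 transcripts, NM_001024212, NM_005979 and NM_001024210, were listed at 0 in all 4 libraries, so the transcript makeup differed even within miR-28CT. The listed coverage of S100A13 amounts to 428 and 689 reads in the miR-28CT libraries, a depth at which counting error is small beside the gap between those libraries. SNAPIN and INTS3, genes in general use by cells, were at 0 in all 4 libraries, unlike S100A13. All 5 S100A13 transcripts had the status OK in every library. Whether a 0 in these files is a failed estimate was not tested. No fold change is given for S100A13, because its miR-28BIO values are 0.

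Scaled FPKM averaged 0.5 or more, as the fit over all genes required, for 7 of the 9 genes, and S100A13 did so only through miR-28CT. S100A14 and S100P did not reach it. By limma with Benjamini-Hochberg adjustment over 11554 gene sums, 0 of the 7 were called at an adjusted p of 0.05, with a background of 0% called higher and 0.026% called lower. Over all gene sums, 0 were called higher and 3 lower, while 258 and 97 (2.23% and 0.84%) had an unadjusted p under 0.05. The 3 called were the small nucleolar RNAs SNORD12C, SNORD57 and SNORD58A, all listed at 0 in miR-28BIO. The calls fell to 0 without miR-28CT replicate 1 or 2, without miR-28BIO replicate 1 or 2, and in 4 other settings: a pseudocount of 1, no filter beyond a value above 0, a filter at 5 and no trend. Among 15587 transcripts 0 were called in either direction (0% and 0%), with 325 higher and 232 lower at an unadjusted p under 0.05. Counting arms that do not overlap, 1 of the 7 genes (S100A13) was lower in miR-28BIO, against 12.6% of all gene sums tested, and 0 were higher, against 12.3%. Since the genes were chosen with these values known, nothing is read from that. Nothing in the labels names a culture or day for each library, and the p-values measure only the spread between these samples.

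**Figure D2:**
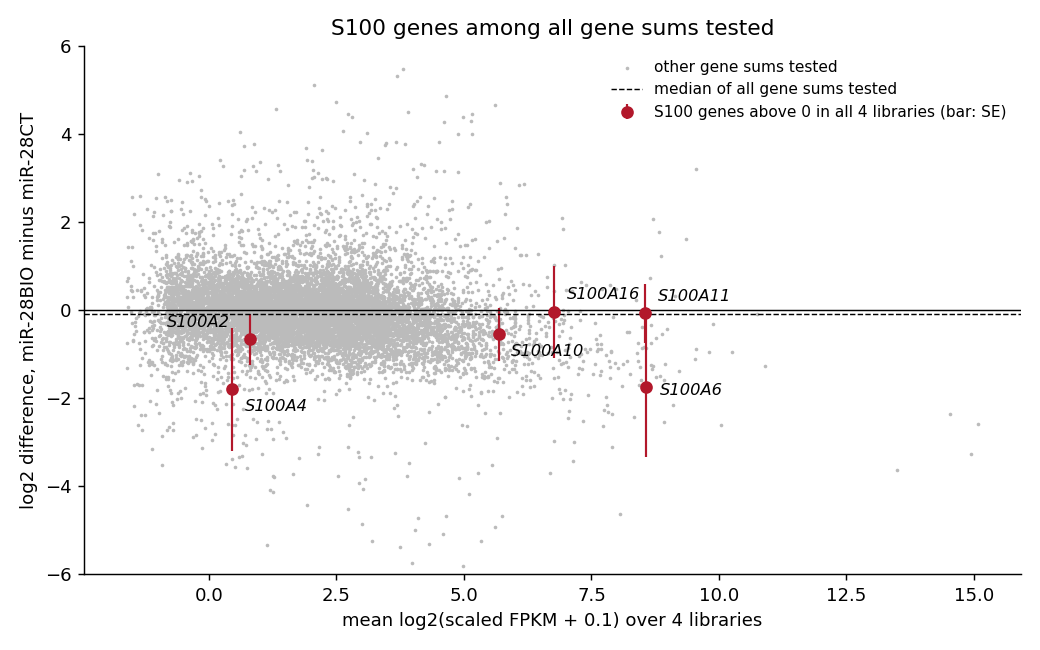
Log2 difference between the arms against the mean log2 level for 11312 gene sums, with 6 S100 genes in red and bars of 1 moderated SE. The 238 gene sums at 0 in both libraries of an arm, S100A13 among them, and 4 beyond the axis are not drawn. S100A6 and S100A4 lie lowest of the 6 and have the longest bars.

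In miR-28CT replicates 1 and 2, S100A10, the light chain that pairs with annexin A2, had 75.2 and 46.4 FPKM. It had 63.3 and 32.4 FPKM in miR-28BIO. S100A11, which binds annexin A1, had 413 and 323 FPKM in miR-28CT and 423 and 361 in miR-28BIO. The arms overlapped for both genes, and S100A11 was the steadiest of the members above 0 in all 4 libraries. The log2 difference, miR-28BIO minus miR-28CT on the log2(scaled FPKM + 0.1) scale, was -0.55 ± 0.61 for S100A10 and -0.07 ± 0.67 for S100A11 (± moderated SE of limma, here and below, n = 2 per arm). The moderated SE borrows spread from other genes, and the replicates of these 2 genes alone had a pooled SD of 0.54 and 0.14. The value of S100A10 was -1.06 without miR-28BIO replicate 1, -0.05 without miR-28BIO replicate 2 and -0.37 without miR-28CT replicate 1. That of S100A11 was -0.21 without miR-28BIO replicate 1 and 0.06 without miR-28BIO replicate 2. This scale understates differences of genes with low FPKM. S100A11 has processed pseudogenes, so how its reads were split is uncertain.

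S100A6, or calcyclin, binds CACYBP and annexin A11. Its FPKM was 232.5 and 1880 in miR-28CT replicates 1 and 2, and 96.3 and 503 in miR-28BIO. Scaled values of the replicates differed 10.1 times in miR-28CT and 5.07 times in miR-28BIO, and the higher library of miR-28BIO lay above the lower one of miR-28CT. Among the 10909 gene sums tested and above 0 in all libraries, 2.89% differed as much between the miR-28CT replicates. By replicate number, scaled S100A6 was 2.39 and 4.78 times higher in miR-28CT, though the labels tie the numbers to no batch or day. The log2 difference between the arms was -1.76 ± 1.58, and the pooled SD of its replicates was 2.04, larger than that difference. It was -0.09 without miR-28CT replicate 2 and -3.43 without miR-28CT replicate 1, and -0.59 and -2.93 without miR-28BIO replicates 1 and 2.

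S100A4 binds non-muscle myosin heavy chain and is known for its part in cell movement. Only 1 of its 2 transcripts, NM_002961, was above 0, with 0.696 and 7.36 FPKM in miR-28CT and 0.385 and 1.16 in miR-28BIO. These values stand for about 6.40, 48.5, 3.39 and 8.79 reads, so 3 of the 4 rest on fewer than 10 reads. The miR-28CT replicates differed 13.2 times, the arms overlapped, and the log2 difference was -1.80 ± 1.40, with a pooled SD of replicates of 1.89. Leaving out miR-28CT replicate 2 gave -0.03, leaving out miR-28CT replicate 1 gave -3.57, and leaving out miR-28BIO replicate 1 gave -1.13.

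S100A2, which binds p53, had 1.51 and 2.63 FPKM in miR-28CT and 1.18 and 1.62 in miR-28BIO, from 19.3 to 32.9 reads. S100A16, a broadly expressed member, had 62.6 and 177.8 FPKM in miR-28CT and 61.7 and 216.7 in miR-28BIO. For S100A16 the replicates differed 3.56 times in miR-28CT and 3.41 times in miR-28BIO, and each arm held a lower and a higher library at nearly the same level. The log2 differences were -0.67 ± 0.58 for S100A2 and -0.04 ± 1.04 for S100A16. Without miR-28CT replicate 2 they were -0.13 and 0.88, and without miR-28CT replicate 1 they were -1.20 and -0.95. That of S100A16 was also 0.84 without miR-28BIO replicate 1 and -0.92 without miR-28BIO replicate 2. S100A14, an epithelial member, was listed at 0 in both miR-28CT libraries and at 0.383 and 0.0841 in miR-28BIO, which is 7.06 and 1.33 reads. Its arms did not overlap, but at this depth no difference was detectable. S100P, a ligand of the receptor AGER encoded on chromosome 4, was listed at 0 throughout.

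The order of levels changed between libraries. S100A11 was first and S100A6 second in replicate 1 of both arms, and S100A6 was first in replicate 2 of both arms. Between S100A6 and S100A11 the order is therefore within the spread of replicates, as it is among S100A10 and S100A16. In every library these 4 genes lay above S100A2 and S100A4. Together the 9 genes made up 0.366% and 0.211% of all summed FPKM in miR-28CT, and 0.502% and 0.320% in miR-28BIO. The totals were 226061, 1202901, 128834 and 348371 FPKM, so the shares are on a scale other than that of the differences.

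Of the values above 0 for transcripts of the 9 genes, 17 of 29 lay outside the confidence interval that Cufflinks listed for the same value, against 17.0% of all such values. For S100A6 in miR-28CT replicate 2 the listed FPKM was 1880 and its interval ran from 887 to 937. For S100A16 in miR-28BIO replicate 2 it was 216.7, with an interval from 92.3 to 105. The intervals of these genes therefore do not give the error of the listed values.

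**Figure D3:**
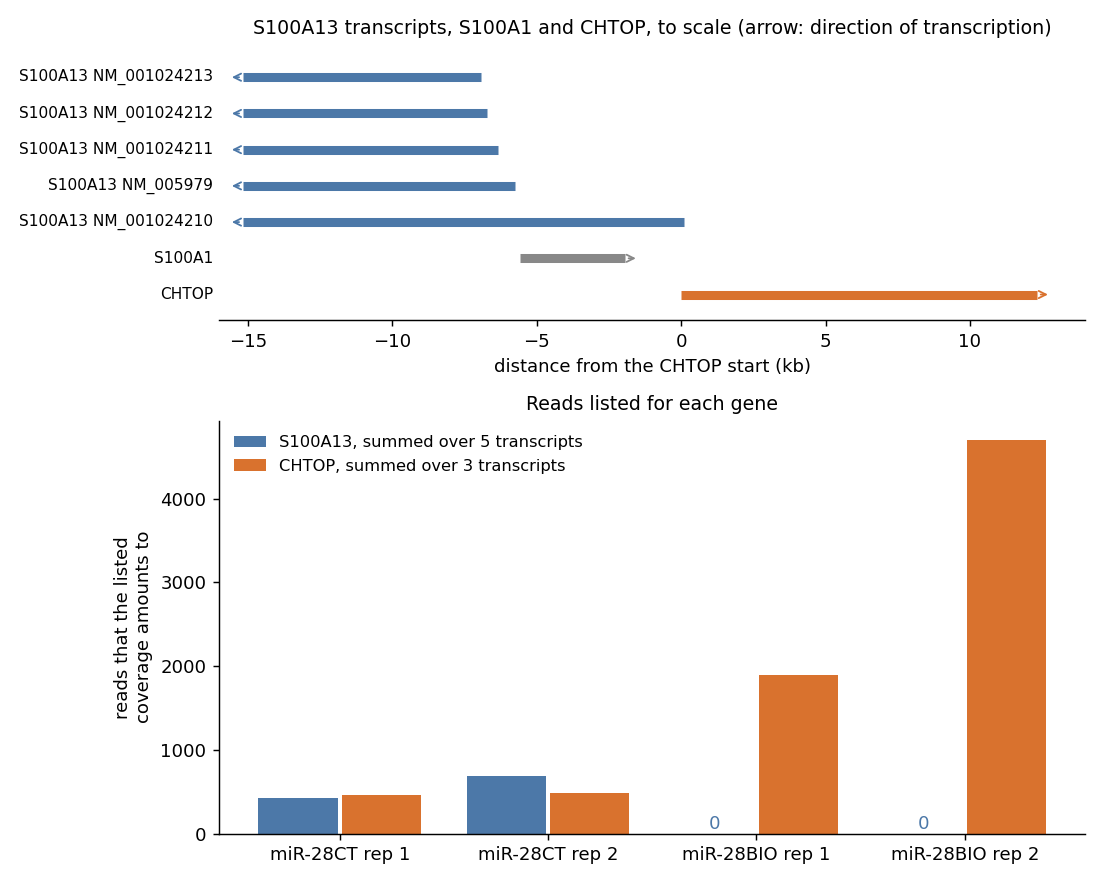
Top, the S100A13 transcripts, S100A1 and CHTOP drawn to scale by distance from the CHTOP start, in kb. Bottom, the reads that the listed coverage amounts to per library: S100A13 has 428 and 689 in miR-28CT and 0 in miR-28BIO, where CHTOP has 1890 and 4695.

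S100A13 is the only one of the 9 genes whose locus overlaps that of another gene in the files. The longest S100A13 transcript, NM_001024210, begins 111 bases inside the locus of CHTOP (chr1:153633982-153646306), a chromatin and mRNA export factor read in the opposite direction. The gene for S100A1, the heart and muscle member, lies within the S100A13 span and was listed at 0 in all 4 libraries. CHTOP had 11.9 and 17.2 FPKM in miR-28CT and 50.4 and 147.5 in miR-28BIO. Its arms did not overlap, and its log2 difference was 2.41 ± 0.76 with an adjusted p of 1.00 by limma, so it did not pass the test. In reads, S100A13 and CHTOP had 428 and 462 in miR-28CT replicate 1, and 689 and 486 in replicate 2. In miR-28BIO, S100A13 had 0 and CHTOP had 1890 and 4695. The 2 S100A13 transcripts above 0 begin at 153627048 and 153627641 and reach neither CHTOP nor S100A1 (from 153628397). The library kit keeps the strand of the RNA, and whether Cufflinks was run by strand is not given in the sources used here. The part of this overlap in the value of S100A13 was not tested.

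The promoter shown for S100A13 is that of this upstream start, because it lies inside the CHTOP locus. The S100A13 transcript that begins nearest to it, NM_001024210, was listed at 0 in every library. The promoter of S100A4 is set beside it because its start is the same base in the files and in RefSeq. Both are the 250 bases before the start on the minus strand, from RefSeq (GRCh38.p14), at chr1:153634362-153634611 and chr1:153545807-153546056. Capitals mark matches, on either strand, to the TATA motif TATAAA, the CAAT box letters CCAAT, the GC box letters GGGCGG and the AP-1 letters TGANTCA, and no matches overlap here.
S100A13: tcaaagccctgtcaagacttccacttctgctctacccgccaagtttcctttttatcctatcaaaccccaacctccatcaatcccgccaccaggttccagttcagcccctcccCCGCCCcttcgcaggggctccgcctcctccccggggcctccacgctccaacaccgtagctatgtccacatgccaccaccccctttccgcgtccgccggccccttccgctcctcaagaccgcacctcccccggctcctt
S100A4: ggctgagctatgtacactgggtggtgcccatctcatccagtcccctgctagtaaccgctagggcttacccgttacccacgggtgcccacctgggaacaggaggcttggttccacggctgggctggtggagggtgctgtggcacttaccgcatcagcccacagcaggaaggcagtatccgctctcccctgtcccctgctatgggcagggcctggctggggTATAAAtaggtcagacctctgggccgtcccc

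This upstream S100A13 window holds GGGCGG once and no TATAAA, while another window of S100A13 holds TATAAA once and CCAAT once, and the S100A4 window holds TATAAA once, ending 26 bases before the start. All 9 genes matched the RefSeq promoter table, with 13 windows. TATAAA was in 3 of the 13 windows and in 10.7% of all 35116 windows of the same length. GGGCGG was in 5 of 13 and in 42.6% of all, CCAAT in 2 of 13 and in 32.0%, and TGANTCA in 1 of 13 (S100A2) and in 6.57%. The RefSeq start of S100A13 used for its window lies 269 bases upstream of the NM_001024210 start in the files.

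Few gene sums had the S100A13 pattern. Of the 5083 gene sums whose scaled FPKM averaged 5 or more, 18 (0.354%) were listed at 0 in both miR-28BIO libraries and above 0 in both miR-28CT libraries, and 1 of them is S100A13. The reverse held for 7. Of the 18, 14 had a locus that overlaps another gene in the files, against 32.3% of the gene sums at this level, and of the 279 gene sums at 0 in some library 84.2% of those with a single locus did. Many of the 14 are small nucleolar RNAs whose loci overlap other genes, such as SNORD58A with RPL17, SNORD57 with NOP56 and SNORA16A with SNHG12. The comparison with 32.3% is not matched for kind of RNA, and the part of overlap in these values was not tested. The 3 gene sums most like S100A13, by the Euclidean distance of centred log2 values over 4 libraries among 5082 candidates, were SNORA16A, PTRHD1 and RNU5E-1, at 0.88, 0.97 and 1.09. SNORA16A, a small nucleolar RNA, had 20.0 and 66.8 FPKM in miR-28CT. PTRHD1, whose locus overlaps that of CENPO, had 30.9 and 42.0. RNU5E-1, a spliceosomal RNA, had 59.2 and 242.3. All 3 were at 0 in both miR-28BIO libraries, as the measure of likeness favours.

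The members' transcripts are short, from 510 to 1068 bases, where the median transcript tested had 2857. Over the 9959 transcripts tested and above 0 in all 4 libraries, length moved with both contrasts. Transcripts of 501 to 1000 bases had a median log2 difference of -0.74 between miR-28BIO and miR-28CT (n = 665), and those over 4000 bases one of 0.14 (n = 3213). Between replicates 2 and 1 the medians were 1.03 in miR-28CT and 0.76 in miR-28BIO for the shorter class, and -0.35 and -0.31 for the longer one. Short transcripts were thus lower in miR-28BIO and higher in replicate 2 of each arm, across genes.

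**Figure D4:**
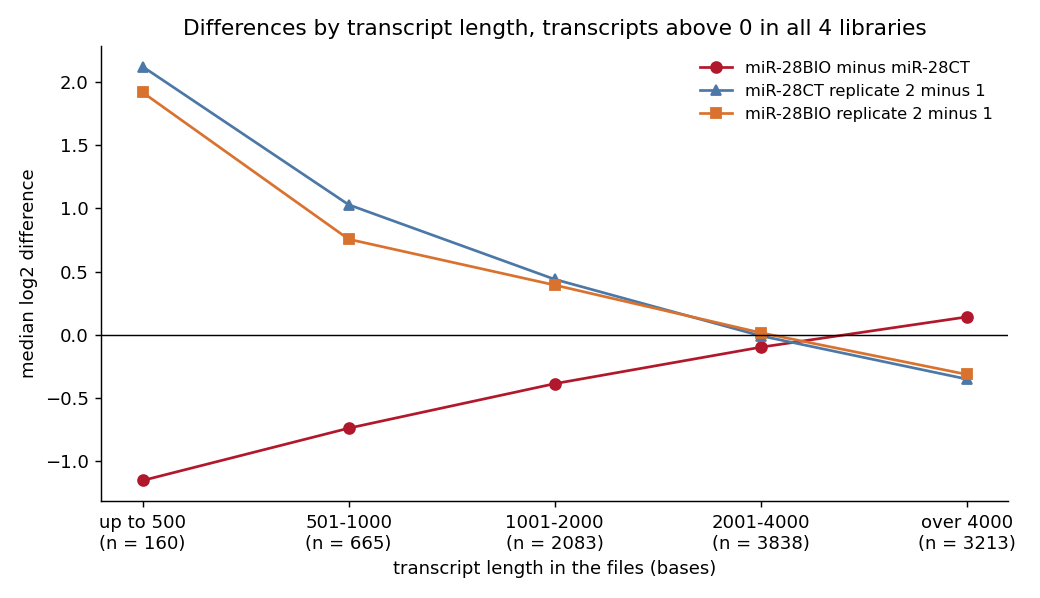
Median log2 difference in 5 classes of transcript length, for the arms and for the replicates of each arm (9959 transcripts tested and above 0 in all 4 libraries). The median between the arms goes from -1.15 in the shortest class to 0.14 in the longest, and the medians between replicates go the other way.

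The median log2 difference of the S100 genes tested was -0.61 over 6 without S100A13, beside -0.08 over all 11554 gene sums. With S100A13, whose sign was known when it was chosen, the median over 7 was -0.67, and it was -0.09 without miR-28CT replicate 2 and -1.20 without miR-28CT replicate 1. Scaling moved the median of all gene sums from 0.08 to -0.08, and with the FPKM as deposited S100A11 and S100A16 turned to 0.10 and 0.13. Gene sums of 501 to 1000 bases, the class of S100A2, S100A4, S100A6, S100A11 and S100A13, had a median of -0.72 (n = 777). With the median of its length class taken off each gene, a comparison added after the data were seen, the S100 median was -0.05 over the 6 and -0.16 over the 7, with S100A2 at 0.06, S100A16 at 0.35 and S100A11 at 0.65, so 3 of the 6 lay above 0. The part of transcript length in the S100 values was not tested further.

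Of the 12 other S100 genes looked for, 11 were named in the files, 7 of these were at 0 in all libraries and 2 were tested. By limma 0 passed in either direction, also at an unadjusted p under 0.05. S100A3 had 2.07 and 4.86 FPKM in miR-28CT and 0.830 and 2.12 in miR-28BIO. S100A9, a subunit of calprotectin, had 2.09 and 2.07 in miR-28CT and 0.963 and 3.41 in miR-28BIO. Both lay at the level of S100A2 and S100A4, their arms overlapped, and they stand just outside the chosen set. Of the 7 S100-fused-type genes of the epidermis, such as FLG, 0 reached the filter and 5 were at 0 throughout.

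Annexins bind membranes in the presence of calcium and several hold S100 dimers. Of 13 annexin genes, 8 were tested, and by limma 0 were called higher and 0 lower, with 0 at an unadjusted p under 0.05. All 8 had a log2 difference below 0, with a median of -0.68, and the arms did not overlap for 4 of them, ANXA1, ANXA3, ANXA4 and ANXA6, each lower in miR-28BIO. Of all gene sums tested, 55.8% were below 0 and 12.6% had arms apart and lower. These 2 shares are not matched for transcript length. Among transcripts tested and above 0 in all libraries, 82.1% of those of 501 to 1000 bases were lower in miR-28BIO. The share was 72.0% at 1001 to 2000 bases and 37.1% from 4001 bases on. The part of transcript length in the annexin values was not tested. In FPKM as deposited the arms of ANXA1 and ANXA4 overlapped, and over all gene sums the count apart and lower was 977 where scaling gave 1459. ANXA3, ANXA4 and ANXA6, like the 3 small nucleolar RNAs, are named after their values were seen. ANXA2, the partner of S100A10, had 269 and 82.2 FPKM in miR-28CT and 147 and 51.2 in miR-28BIO, with overlapping arms. Its pseudogenes ANXA2P1, ANXA2P2 and ANXA2P3 also reached the filter, so how the ANXA2 reads were split is uncertain. ANXA1, the partner of S100A11, had 64.5 and 44.9 in miR-28CT and 55.2 and 39.5 in miR-28BIO. In scaled values its arms were 60.6 and 52.8 against 52.3 and 36.3. ANXA5 (log2 difference -0.35 ± 0.85) and ANXA7 (-0.81 ± 0.62) had overlapping arms.

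**Figure D5:**
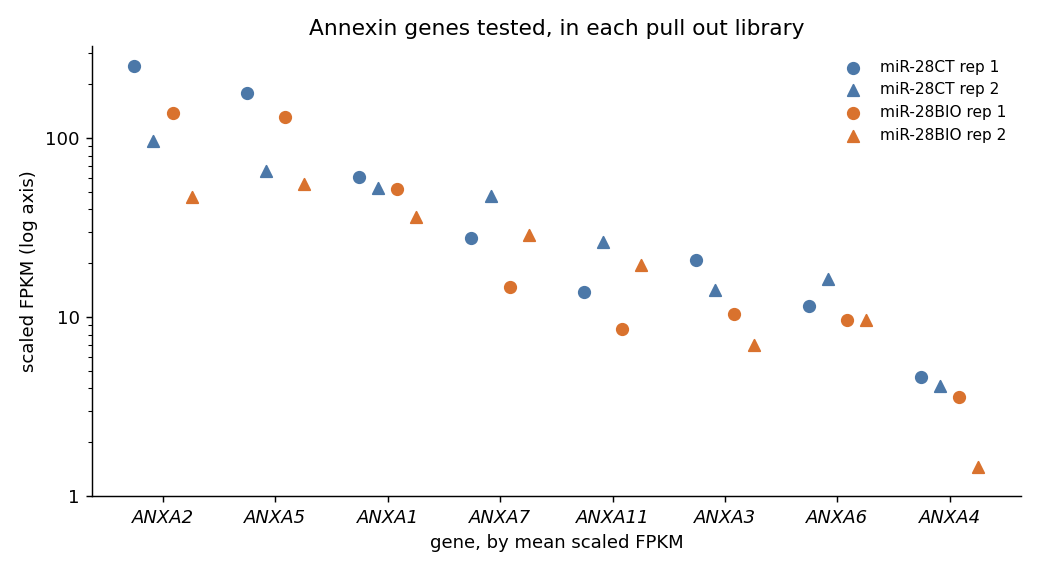
Scaled FPKM of the 8 annexin genes tested, in each library (log axis). Circles are replicate 1 and triangles replicate 2; for ANXA1, ANXA3, ANXA4 and ANXA6 both orange symbols lie below both blue ones.

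Among 16 other partners and receptors, 11 were tested and 0 were called by limma, with 1 higher and 0 lower at an unadjusted p under 0.05, against 2.23% and 0.84% of all gene sums. Their median log2 difference was -0.03, with 5 above 0 and 6 below. MYH9, the myosin heavy chain bound by S100A4, had 39.8 and 29.0 FPKM in miR-28CT and 33.3 and 21.8 in miR-28BIO, and EZR, the ezrin gene, 21.0 and 15.4 against 14.4 and 12.4. After scaling, the arms of MYH9 and EZR did not overlap, both lower in miR-28BIO, and as deposited those of MYH9 did. Over all gene sums 12.6% had arms apart and lower, and 12.3% apart and higher. IQGAP1 (0.11 ± 0.68) and AHNAK (-0.11 ± 0.55), a large scaffold held by S100A10 and annexin A2, had overlapping arms. S100PBP, which binds S100P, was the 1 tested partner whose arms did not overlap with the higher values in miR-28BIO: 3.61 and 1.79 FPKM in miR-28CT, 8.17 and 7.26 in miR-28BIO. It was named after its values were seen, and its log2 difference was 1.39 ± 0.45 (limma adjusted p 1.00). FGF1, the protein that S100A13 helps to release, was at 0 in miR-28CT and at 0.034 and 0.035 in miR-28BIO, SYT1 was below the filter, and AGER was at 0.

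Of 35 genes for other EF-hand proteins, 30 were tested and 0 were called by limma, with 1 in each direction at an unadjusted p under 0.05, against 2.23% higher and 0.84% lower of all gene sums. The log2 difference was below 0 for 24 of the 30, against 55.8% of all gene sums, with a median of -0.50. The 55.8% is not matched for transcript length. By length class, 82.1% of transcripts of 501 to 1000 bases were lower in miR-28BIO, 72.0% at 1001 to 2000 and 37.1% from 4001 on. The part of transcript length in the EF-hand values was not tested. The arms did not overlap for 6 that were lower and 3 that were higher in miR-28BIO, against 12.6% and 12.3% of all gene sums. As deposited these counts were 5 and 3, against 8.45% and 15.6%. MYL6, a myosin light chain, had 170 and 241 FPKM in miR-28CT and 66.1 and 48.6 in miR-28BIO (log2 difference -2.01 ± 0.63, adjusted p 1.00). CALM2, 1 of 3 calmodulin genes, had 136 and 96.0 in miR-28CT and 85.8 and 62.2 in miR-28BIO. RCN2, a reticulocalbin of the endoplasmic reticulum, had 38.5 and 14.3 in miR-28CT and 181 and 111 in miR-28BIO (log2 difference 2.42 ± 0.67, adjusted p 1.00). CAPNS1, the small calpain subunit, had overlapping arms (-0.46 ± 0.76).

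The 16 S100 genes of chromosome 1 span 1651 kb in the files, and 8 of the 9 genes lie there. Of 57 other genes in this span or within 100 kb of it, 48 were at 0 in all libraries and 4 were tested, with 0 called by limma and 1 higher at an unadjusted p under 0.05, against 2.23% of all gene sums. ILF2 had 187 and 15.3 FPKM in miR-28CT and 119 and 23.1 in miR-28BIO, higher in replicate 1 of both arms, the opposite of S100A6 and S100A16. THEM4 had a log2 difference of -0.01 ± 0.39. CCDST, a long non-coding RNA gene, had 0.613 and 0.531 FPKM in miR-28CT and 1.51 and 1.73 in miR-28BIO. CHTOP and CCDST were the 2 of these 4 whose arms did not overlap, both higher in miR-28BIO, against 12.3% of all gene sums, and S100A13 is the tested gene of the cluster with values in miR-28CT alone.

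The labelled cell line was set against its markers. All 6 epithelial markers were above 0, from CDH1 at 0.907 to 1.77 FPKM to KRT7 at 57.8 to 139, and their summed scaled FPKM was 146 and 329 in miR-28CT and 129 and 240 in miR-28BIO. VIM had 251 and 212 FPKM in miR-28CT and 143 and 189 in miR-28BIO. Of these 7 markers the arms of VIM, KRT8 and EPCAM did not overlap after scaling, each lower in miR-28BIO, against 12.6% of all gene sums, and as deposited those of EPCAM did. The arms of the other 4 overlapped, with KRT7 and CDH1 higher (log2 difference 0.43 and 0.17) and KRT18 and KRT19 lower in miR-28BIO (-1.07 and -0.79). Of 6 markers of blood, stromal and endothelial cells only COL1A1 was above 0, at 0.110 to 0.178 FPKM.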

How the data were processed

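RNA-seq libraries of RNA retained on streptavidin beads were analysed, 2 from miR-28CT and 2 from miR-28BIO, grouped by the labels. According to the methods and the submitters' processing notes, the authors checked reads with FastQC (v0.10.1), trimmed them with cutadapt, mapped them to hg38 with TopHat2 (v2.0.9) and estimated FPKM per RefSeq transcript with Cufflinks (v2.1.1). The deposited values are FPKM with their lower and upper limits, and coverage, the mean read depth over a transcript. Counts were not used here, so reads were taken as coverage times length divided by 50. The RefSeq gene table (GRCh38.p14) named 95.4% of 53209 entries. Entries with status OK in all libraries (52530) were scaled by median-of-ratios factors over 11650 entries above 0 in all libraries (1.06 and 0.850 in miR-28CT, 1.06 and 1.09 in miR-28BIO) and summed per symbol.

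limma (v3.58.1, R 4.3.3; lmFit and eBayes with a trend) was run on log2(scaled FPKM + 0.1) of gene sums, and of transcripts, whose scaled FPKM averaged 0.5 or more, with Benjamini-Hochberg adjustment over all of them and a threshold of 0.05. The fit was tested on simulated data: with the spread of these libraries it called none of the changed genes, and it called most of them once the spread was cut to a small part of that. A count of 0 called is therefore no sign that the arms are alike. Tables were made with Python 3.11.15 (pandas 2.3.3, numpy 2.4.6) and plots with matplotlib 3.10.9. With 2 libraries per arm an exact permutation test cannot go below a two-sided p of 0.333.

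The 9 genes and the gene lists were chosen with earlier results of these data known. Named are the 9 genes, some of the genes with the highest mean scaled FPKM in each list, genes known to be tied to a member, markers, and genes picked after their values were seen. The lists are the other S100 genes, S100-fused-type genes, annexins, other partners and receptors, other EF-hand genes, neighbours of the cluster, and markers of epithelial, mesenchymal and other cells; a further marker list is not reported here. Alternatives were other pseudocounts, filters and scalings, no trend, a replicate block, each library left out, all statuses, Cufflinks intervals and the highest transcript alone. Promoter sequences are from RefSeq.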

Additional observations from a re-analysis of the deposited data

How the results depend on the processing

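The 3 gene sums called lower became 0 with a pseudocount of 1, with no filter beyond a value above 0, with a filter at a mean scaled FPKM of 5, without a trend, and over the 4 fits that leave out 1 library (0 to 0, the lone library of an arm being assumed to vary like the other arm). The cause was not tested. They numbered 3 with a pseudocount of 0.01, without scaling, with upper quartile scaling and with all statuses. Gene sums called higher were 0 in all these settings. At the level of transcripts limma called 0 in either direction in every setting run, whereas Cufflinks intervals of the arms lay apart for 1028 higher and 691 lower transcripts, among them NM_001024213 of S100A13 (lower) and no other transcript of the 9 genes. Those intervals hold no spread between replicates.

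With the replicate number as a replicate block, 39 gene sums were called higher and 22 lower by limma, S100A13 the only one of the 9 genes among them and no gene of the lists. S100A13 was chosen with its values in both arms known and passed the filter only through miR-28CT, so nothing is read from its call. The labels tie the numbers to no batch or day, and there are only 2 pairs. The deviations of same-numbered libraries from their arm means had r = 0.61 and rho = 0.82 across genes, which are not independent replicates. For transcripts the block gave 0 and 0.

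The S100 median, mostly taken with S100A13, ran from -1.20 to -0.05. The last is from the length classes without S100A13, chosen after seeing the data, and the planned fit without miR-28CT replicate 2 gave -0.09 against -0.67. The log2 differences of S100A6, S100A4 and S100A10 ran from -3.43 to -0.09, -3.57 to -0.03 and -1.06 to -0.05, the ends coming from leaving out 1 library. Dropping the trend, a block, a wider filter and all statuses return the main values of these genes, so they say nothing about stability. S100A16 ran from -0.95 to 0.88, S100A11 from -0.21 to 0.65 and S100A2 from -1.20 to 0.06. A filter at 5 leaves no value for S100A2 and S100A4. No log2 difference of S100A13 is printed on its own, as it is at 0 in miR-28BIO, and it enters the median over 7 only by lying below it. Depth limits S100A4, S100A2 and S100A14, which rest on fewer than 50 reads per library.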
